A study of Mus musculus with 8 samples.

Results

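The transcripts of 10 genes that build or decorate liver lipoproteins were followed in an m6A immunoprecipitation sequencing (m6ARIP-seq) study of mouse liver. The genes were *Apob*, *Mttp*, *Apoa1*, *Apoa2*, *Apoa4*, *Apoa5*, *Apoc3*, *Apoe*, *Apom* and *Apoh*, and their peaks were taken by gene name from 3 deposited peak lists. They accounted for 16 of the 15635 peaks of the *Wtap* flox/flox livers, 20 of the 19185 peaks of the *Wtap*-HKO livers and 12 of the 3870 rows of a list of peaks that differ between the genotypes. Of the 10 genes, 7 had a peak. The aim was to set the many-peak transcript of *Apob* beside the 8 short apolipoprotein transcripts (all members except *Apob* and *Mttp*), site by site, in the 2 genotypes.

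All mice were C57BL/6J (C57BL/6 in the labels), were fed normal chow and were 8 weeks old, and both groups carried the floxed *Wtap* alleles. The *Wtap*-HKO mice (*Wtap* flox/flox Alb-Cre) also carried a Cre recombinase under the albumin promoter, which is active in hepatocytes, so that the other cells of the liver kept *Wtap* while RNA was taken from whole liver. The *Wtap* flox/flox mice without Cre are called controls below. Each genotype had 2 IP and 2 input libraries, 8 in all, made from poly(A)+ RNA pooled from several mice. The 2 replicates of a genotype are combined in each list. No value below therefore has an SD, no difference could be tested against the spread between replicates, and the read depth behind a peak is unknown.

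N6-methyladenosine (m6A) is a methyl mark that a nuclear complex adds to adenosines of mRNA, mostly in long internal exons and near stop codons. WTAP is the subunit that holds the catalytic pair METTL3 and METTL14 of this complex in nuclear speckles. The antibody used also recognises m6Am, a related mark on the first transcribed adenosine of capped mRNAs, which another enzyme adds. Hepatocytes export triglyceride in very low density lipoproteins, each built on 1 molecule of apolipoprotein B, onto which the microsomal triglyceride transfer protein encoded by *Mttp* loads lipid. The smaller apolipoproteins are exchanged between particles and activate or restrain the enzymes and receptors that act on them.

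In *Apob*, the enrichment was lower in *Wtap*-HKO at 5 of the 6 sites where both genotypes had peaks, and a further 2 sites had a peak in control livers only. Among the short transcripts, 4 of 7 shared sites were higher in *Wtap*-HKO and 3 were lower, and a further 3 sites had a peak in *Wtap*-HKO livers only. Over all genes, 49.7% of the 11822 shared sites were lower in *Wtap*-HKO, 20.0% of control peaks had no partner in *Wtap*-HKO and 35.4% of *Wtap*-HKO peaks had none in controls. Of the member peaks, 2 of 16 and 3 of 20 had no partner, smaller shares than those over all genes. RNA came from whole liver, so a different share of hepatocytes and a difference within them cannot be told apart. The sites that were higher included those at the starts of *Apom*, *Apoa2* and *Apoe*, of which that of *Apoa2* also ran into later exonic blocks. Those that were lower included the 3´ parts of *Apoa1* and *Apoa4* and a peak that covered much of *Apoa5*. For *Apoa4* and *Apoa5* the strand is uncertain, as described below. Here a site is a set of peaks of 1 gene that share at least 1 exonic base between the lists. The fold enrichment is the authors' ratio of IP over input for a peak, and a log2 ratio is the log2 of the *Wtap*-HKO fold enrichment divided by that of controls. Where a site held more than 1 peak of a genotype, the log2 ratio was averaged over the bases that both genotypes covered.

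In 5 of the 18 member sites, all in short transcripts, a peak covered an annotated transcription start or lay within 50 nt of one. This held for 16.2% of the 15616 sites in genes with an annotated start. *Apoa2*, *Apoa5* and *Apoe* have more than 1 annotated start, and every start within 50 nt of a peak is given. The bases around these starts are shown because 4 of these 5 sites, all but that of *Apoa5*, had a higher enrichment or their only peak in *Wtap*-HKO. Each stretch is the RefSeq sequence (GRCm38.p6) of 30 bases from 15 bases before the annotated start, on the transcribed strand, with the first transcribed base in a capital letter.
*Apoa1*, chr9:46228615-46228644, plus strand: aaagtaagcagtggcAgggccaggctgagc
*Apoa2*, chr1:171225039-171225068, plus strand: tgggggtgggggagtAtatgtgtatatagc
*Apoa5*, upstream start, chr9:46268593-46268622, plus strand: ctgctctctgtgcccAgaaccgagcaggtg
*Apoa5*, downstream start, chr9:46268618-46268647, plus strand: aggtgagcttacatgGcacagggatggtgg
*Apoe*, chr7:19699174-19699203, minus strand: tccaaactccacctcTttcctctgccctgc
*Apom*, chr17:35131787-35131816, minus strand: gagggggctggaggcAgagtagaccgagcg
The annotated first base was A in 4 of these 6 windows, and it was A in 34.4% of all 32851 mouse windows, with or without a peak. Both *Apoa5* windows belong to the same site, whose peaks began at the downstream start, where the first base is G. The *Apoa1* peak of *Wtap*-HKO began at -21 nt from the annotated start. Those of *Apom* began at -70 nt in controls and at -130 nt in *Wtap*-HKO. For comparison, the starts of *Apob* and *Apoa4* had no peak within 50 nt.
*Apob*, chr12:7977662-7977691, plus strand: ctgcagtggatcaagTacctgcctgagctc
*Apoa4*, chr9:46240829-46240858, plus strand: tcctgaagtttctggCtatccttcccagcc
The letters GGACT, the DNA spelling of a common m6A motif, were absent on both strands from the first 50 transcribed bases of all 13 windows of the 9 members that have one. They were present on the transcribed strand in 5.76% and on the opposite strand in 4.87% of all windows. A peak is far wider than the first 50 bases, so this says only that these letters are not in these windows. The start that hepatocytes use may differ from the annotated one.

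*Apob* (ENSMUSG00000020609, chromosome 12, 7977629 to 8016839, plus strand) had 8 peaks in controls and 9 in *Wtap*-HKO. Its control peaks covered 6300 nt, which ranked 2 among all genes with peaks in that list. In that list 12 genes had more peaks. Every peak was a single exonic block, and the first began 28656 nt after the annotated start, so that all lay in the last part of a gene of 39211 nt. The medians of their fold enrichments were 4.23 in controls (1.92 to 10) and 2.17 in *Wtap*-HKO (1.26 to 5.71), beside medians of 5.51 and 5.93 over all peaks of the 2 lists.

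The strongest *Apob* site (8007831 to 8009449) had a fold enrichment of 10 over 1619 nt in controls. In *Wtap*-HKO it was found as 2 peaks, with fold enrichments of 5.30 over 720 nt and 5.71 over 690 nt. The log2 ratio over the shared bases was -0.86, or 1.82-fold lower in *Wtap*-HKO. The next site upstream (8006333 to 8007292) was the second strongest, with 7.09 in controls and 4.69 in *Wtap*-HKO (log2 ratio -0.60). It was 1 of only 2 *Apob* sites that no row of the list of differing peaks met.

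The next 3 shared sites toward the 3´ end were also lower. The site from 8009869 to 8011277 had 4.46 over 1409 nt in controls and 2 peaks of 2.17 and 2.59 in *Wtap*-HKO (log2 ratio -0.84). The site from 8012356 to 8012895 had 4.32 and 2.15 (log2 ratio -1.01, 2.01-fold lower). The site from 8015187 to 8016236 had 4.14 over 1050 nt in controls and 2 short remnants of 1.76 and 1.26 in *Wtap*-HKO, over 271 and 121 nt. This was the largest difference in *Apob*, with a log2 ratio of -1.38 (2.61-fold lower). The value of 1.26 stood at percentile 0.0365 of the *Wtap*-HKO list.

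Both sites found in controls only were weak, with fold enrichments of 2.32 over 151 nt (8007352 to 8007502) and 1.92 over 300 nt (8011517 to 8011816). They stood at percentiles 9.35 and 4.12 of that list. A peak that is missing from a list does not show that m6A was absent there. The last site (8016565 to 8016835), which ended 4 nt before the annotated 3´ end of the gene, was the exception. Its fold enrichments were 2 in controls and 2.14 in *Wtap*-HKO (log2 ratio 0.10), over 271 and 181 nt.

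**Figure D1:**
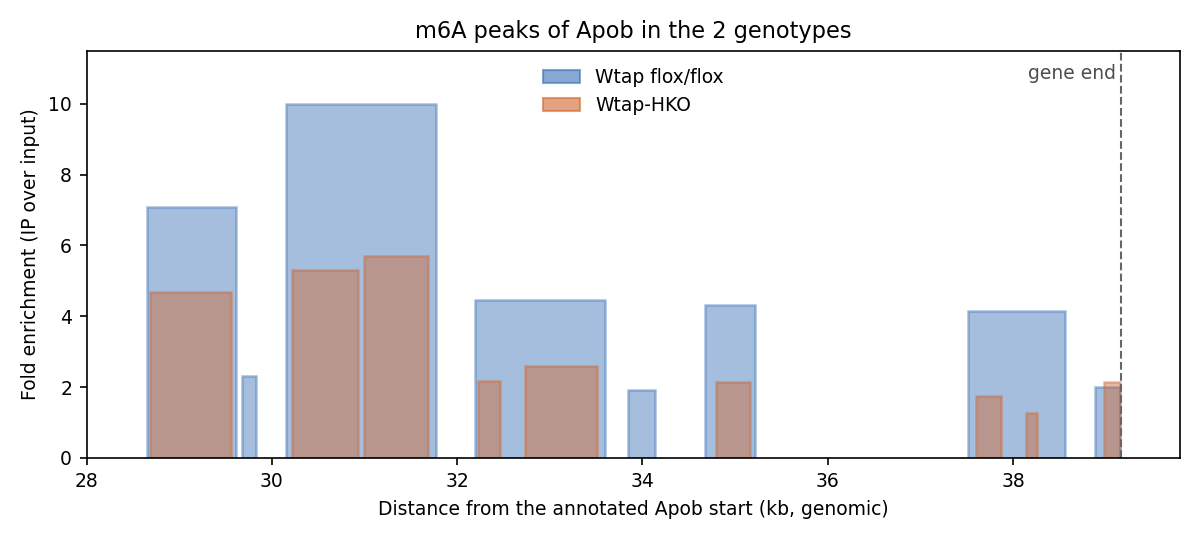
Peaks of *Apob* in *Wtap* flox/flox and *Wtap*-HKO livers, with the genomic distance from the annotated start (kb) on the x axis and the fold enrichment of IP over input on the y axis. Each box spans 1 peak of a combined list, its height is the fold enrichment, and it has no error bar. The dashed line is the annotated end of the gene. The *Wtap*-HKO boxes are narrower and lower than the *Wtap* flox/flox boxes at 5 of the 6 shared sites, and at the last site the values are 2 and 2.14.

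The *Wtap*-HKO peaks of *Apob* covered 4234 nt, a difference of -2066 nt from controls, and 100% of these bases lay inside control peaks. Every *Wtap*-HKO base lay inside control peaks in 24.6% of the 8096 genes with peaks in both lists. The ratio of covered bases was 0.672 in *Apob*, below the quartiles of 0.791 and 1.43 over those genes (median 1.03). In 3 of its 6 shared sites, 1 control peak was replaced by 2 *Wtap*-HKO peaks, which happened in 3.84% of such sites over all genes. All 3 of these *Apob* peaks were at least 1000 nt long, and among peaks of that length the share over all genes was 36.0%. *Wtap*-HKO thus had more *Apob* peaks than controls, 9 against 8, over fewer bases. With peaks of a fold enrichment of at least 2 only, each genotype had 7 *Apob* peaks.

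Of the 28 genes with at least 6 shared sites, 17.9% had, as *Apob* did, all but at most 1 of them lower in *Wtap*-HKO. The median over the *Apob* sites was -0.85 over shared bases, beside 0.00 over all genes (quartiles -0.61 and 0.67). In genes with an annotated start, the 7395 shared sites away from it, as those of *Apob* are, had a median of -0.14. Their quartiles were -0.70 and 0.45, and 56.6% of them were lower in *Wtap*-HKO. With only the 3 *Apob* sites that had exactly 1 peak in each genotype, the *Apob* median was -0.60. Sites of 1 transcript share the same molecules and are not replicates. The genes with at least 5 such sites whose median lay nearest to that of *Apob* were *Maml1* (6 sites, median -0.61, range -1.27 to 1.56), *Slc45a4* (5 sites, median -0.57, range -2.40 to 0.10) and *Nup153* (5 sites, median -0.51, range -0.88 to -0.15).

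The short transcripts had 8 peaks in controls and 11 in *Wtap*-HKO, in 6 of the 8 genes. Over the 5 of their sites with exactly 1 peak in each genotype the median log2 ratio was 0.72, and over all 7 shared sites it was 0.43, with a range from -1.23 to 2.49. At 2 of these 7 sites the ratio was past 2-fold higher, and at 2 it was past 2-fold lower, beside 15.1% and 12.9% of the shared sites of all genes. Their covered length was nearly the same in both genotypes, 4457 nt in controls and 4516 nt in *Wtap*-HKO, with 3536 nt shared.

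**Figure D2:**
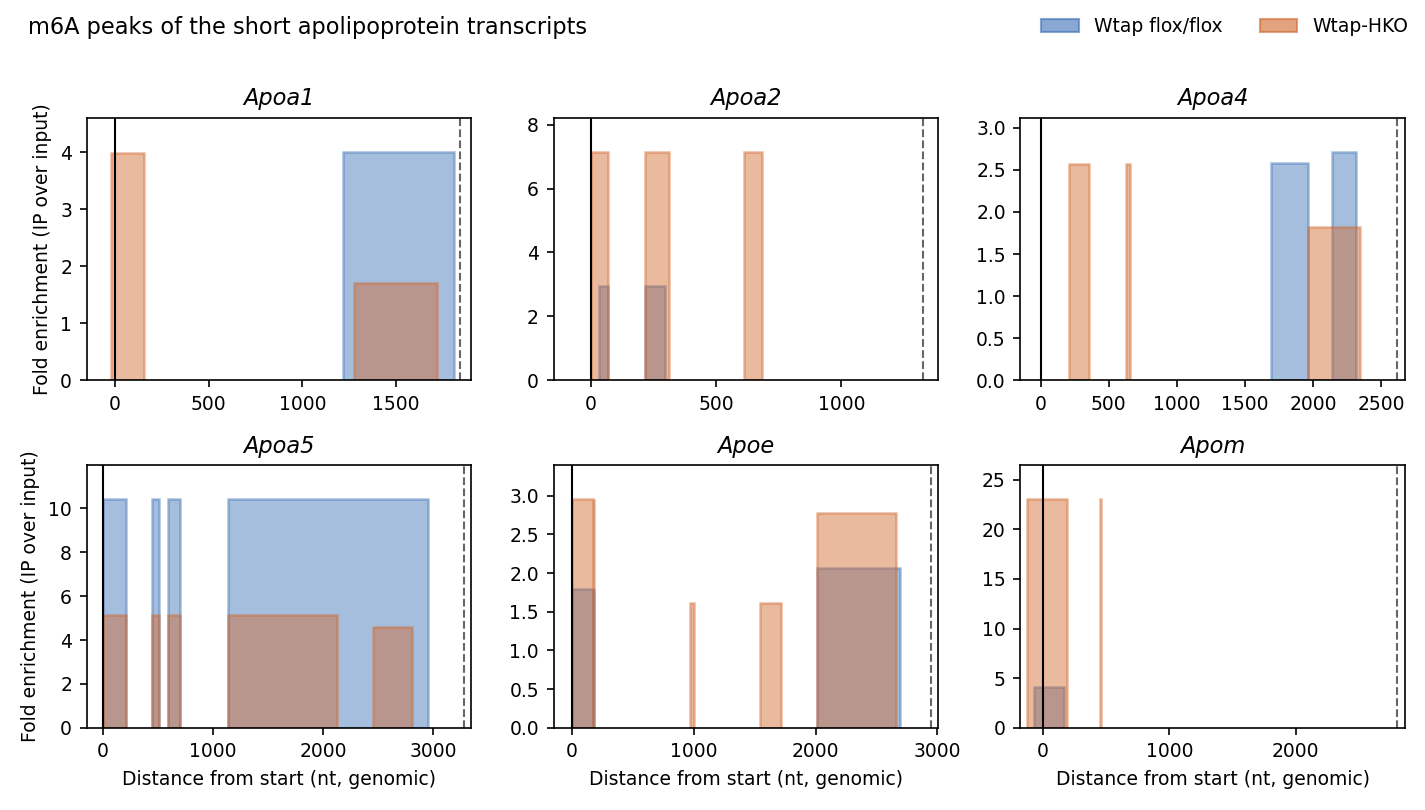
Peaks of the short apolipoprotein transcripts in *Wtap* flox/flox and *Wtap*-HKO livers, 1 panel per gene, with the genomic distance from the annotated start (nt) on the x axis and the fold enrichment on the y axis, whose range differs between panels. Each box is an exonic block of a peak of a combined list, its height is the fold enrichment of the whole peak, and it has no error bar. Solid and dashed lines are the annotated start and end. *Apom* and *Apoa2* stand higher in *Wtap*-HKO, at 23.0 and 7.14, and *Apoa5* stands higher in *Wtap* flox/flox, at 10.4.

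*Apom* (ENSMUSG00000024391, chromosome 17, minus strand), which encodes a carrier of sphingosine-1-phosphate on high density lipoproteins, had the largest ratio of all member sites. Its only peak lay over the annotated start. It had a fold enrichment of 4.08 in controls (35131633 to 35131871, 239 nt) and 23.0 in *Wtap*-HKO (35131344 to 35131931, 328 nt). The log2 ratio was 2.49, or 5.64-fold higher in *Wtap*-HKO, and the peak stood at percentile 34.7 of the control list and at 89.6 of the *Wtap*-HKO list.

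*Apoa2* (ENSMUSG00000005681, chromosome 1, plus strand), the second most abundant protein of high density lipoproteins, also had 1 peak in each genotype. It had 2.95 over 120 nt in controls (171225084 to 171225349) and 7.14 over 239 nt in *Wtap*-HKO, where it began exactly at the annotated start (171225054 to 171225737). The log2 ratio was 1.28 (2.42-fold higher), and the *Wtap*-HKO peak held all 120 bases of the control peak. The control peak had 2 exonic blocks and ended 295 nt (genomic) after the start, and the *Wtap*-HKO peak had 3 and ended 683 nt after it. The single value of each peak does not separate the start from the rest.

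*Apoe* (ENSMUSG00000002985, chromosome 7, minus strand), a ligand of the LDL receptor that clears remnant particles, had 2 shared sites, and both were higher in *Wtap*-HKO. At the start (19699008 to 19699188, 179 nt in each genotype) the fold enrichments were 1.79 and 2.95 (log2 ratio 0.72, 1.65-fold higher). This control peak had the weakest support of all member peaks, with a log10 false discovery rate of -10. At the 3´ site, from 19696495 to 19697178, the fold enrichments were 2.06 and 2.77 (log2 ratio 0.43, 1.34-fold higher). Another *Apoe* site (19697474 to 19698222) was found in *Wtap*-HKO only and was weak, with 1.61 over 209 nt.

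*Apoa1* (ENSMUSG00000032083, chromosome 9, plus strand), the main structural protein of high density lipoproteins, had a site at its start and a site near its 3´ end. Its start had a peak in *Wtap*-HKO only, with a fold enrichment of 3.98 over 178 nt (46228609 to 46228786), so no ratio can be given there. With a log10 false discovery rate of -31.2, this peak had the weakest support of the member peaks in the *Wtap*-HKO list. Near its 3´ end a site from 46229848 to 46230437 had 4 over 590 nt in controls and 1.71 over 442 nt in *Wtap*-HKO (log2 ratio -1.23, 2.34-fold lower). It stood at percentile 33.6 of the control list and at 1.59 of the *Wtap*-HKO list.

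*Apoa5* (ENSMUSG00000032079, chromosome 9, plus strand), which promotes the clearance of triglyceride by lipoprotein lipase, had the highest fold enrichment of the members in controls. That peak (46268633 to 46271593) had 10.4 over 2196 nt in 4 exonic blocks. In *Wtap*-HKO it was found as 2 peaks, of 5.13 over 1365 nt and 4.6 over 356 nt, all inside the control peak. The log2 ratio over the shared bases was -1.05 (2.07-fold lower). The peak began at the downstream annotated start but ran through most of the transcript, so its single value does not separate the start from the rest.

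*Apoa4* (ENSMUSG00000032080, chromosome 9, plus strand), an intestinal and hepatic apolipoprotein of large triglyceride-rich particles, had 2 peaks in controls, with 2.58 over 269 nt (46242537 to 46242805) and 2.71 over 180 nt (46242983 to 46243162). In *Wtap*-HKO 1 peak of 1.82 over 387 nt (46242805 to 46243191) met both, the first by 1 base only. The log2 ratio over the shared bases was -0.57. A second *Apoa4* site, 209 nt after the start, had a peak in *Wtap*-HKO only (46241053 to 46241496, 2.57 over 179 nt). No *Apoa4* site was met by the list of differing peaks.

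The values of *Apoa4* and *Apoa5* are uncertain as to the strand. Every *Apoa4* and *Apoa5* peak shared bases with a peak that the lists give to an unnamed gene on the opposite strand, with a similar fold enrichment. Opposite *Apoa5*, a peak of ENSMUSG00000111403 (46270035 to 46271365, 524 nt) had 9.17 in controls and 4.87 in *Wtap*-HKO. Opposite the 3´ site of *Apoa4*, peaks of ENSMUSG00000074373 had 2.82 and 2.70 in controls and 1.82 in *Wtap*-HKO. The sources used here do not state that strand was kept in the libraries or the counting, and without it the reads of the 2 strands cannot be told apart. The other members with peaks had none on the opposite strand over their bases. Of the lower shared sites of the short transcripts, only that of *Apoa1* is free of this uncertainty.

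Of the short transcripts' shared sites, 4 lay within 50 nt of an annotated start, and 3 of these were higher in *Wtap*-HKO (*Apom*, *Apoa2* and *Apoe*). The sites of *Apoa2* and *Apoa5* also covered later exonic blocks, so their values are not those of the start alone. Over all genes, 84.3% of the 1286 shared sites at a start were higher in *Wtap*-HKO, with a median log2 ratio of 0.79. Away from a start, 1 of the 3 shared sites of the short transcripts was higher (the 3´ site of *Apoe*), beside 43.2% of the 7395 such sites of all genes (median -0.14). The shares of the short transcripts at and away from a start thus lay on the same side as those of all genes, and with so few sites no share particular to them can be read. *Apob* had no site at a start, and 1 of its 6 shared sites was higher. Without the 3 start sites that had exactly 1 peak in each genotype, the median over the short transcripts was -0.40, from *Apoa1* (-1.23) and *Apoe* (0.43).

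**Figure D3:**
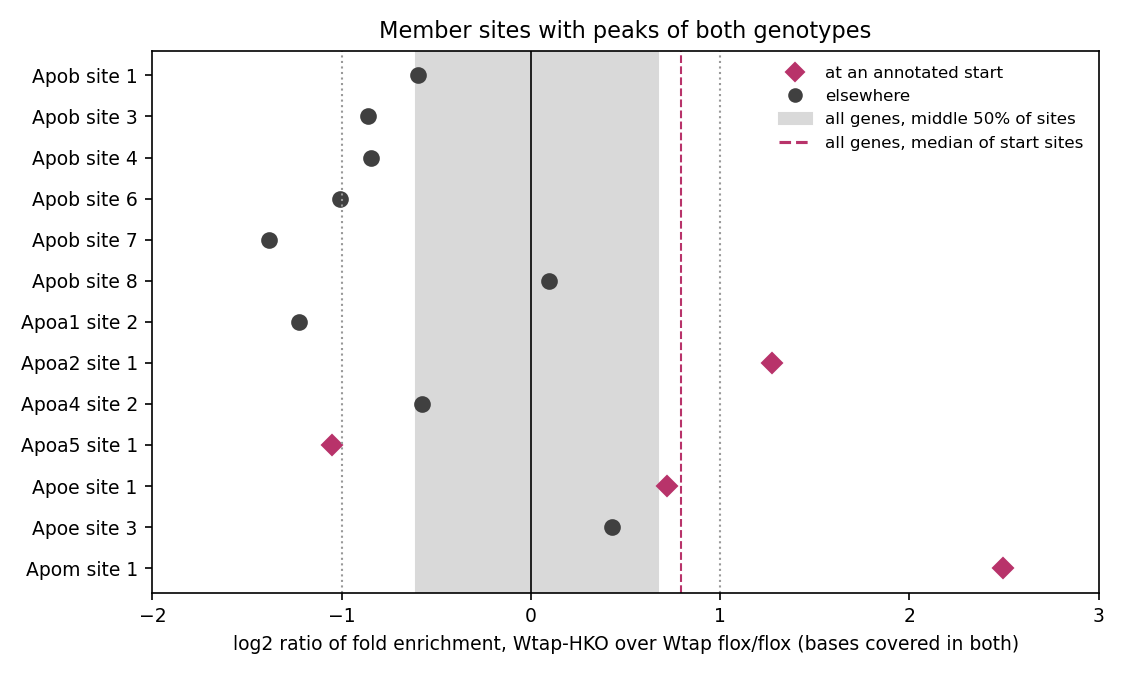
The log2 ratio of fold enrichment, *Wtap*-HKO over *Wtap* flox/flox (x axis), at each of the 13 member sites with peaks of both genotypes (y axis, numbered along each gene), over the bases that both covered. The *Apob* sites lie between -1.38 and 0.10 and the sites of the short transcripts between -1.23 and 2.49, with diamonds for sites at an annotated start. The grey band holds the middle 50% of the sites of all genes, the dashed line is the median of all start sites (0.79), and the dotted lines mark 2-fold.

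Counted by presence, 2 of the 16 member peaks of controls, both in *Apob*, had no partner in *Wtap*-HKO. In *Wtap*-HKO, 3 of the 20 peaks had no partner, in *Apoa1*, *Apoa4* and *Apoe*. Of all sites at an annotated start, 46.2% had a peak in *Wtap*-HKO only and 2.96% in controls only. The *Apoa1* start was of the first kind. 

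**Figure D4:**
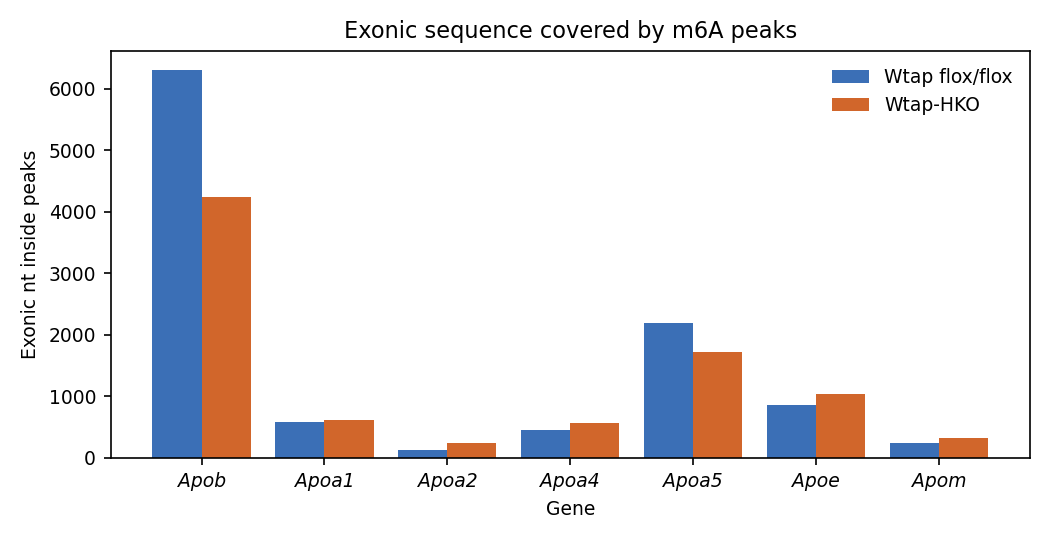
Exonic bases (nt, y axis) covered by peaks of each member with a peak (x axis), in *Wtap* flox/flox and *Wtap*-HKO livers. *Apob* goes from 6300 to 4234 nt and *Apoa5* from 2196 to 1721 nt, and the other 5 genes have more covered bases in *Wtap*-HKO.

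The list of differing peaks had 12 rows in the members, 6 in *Apob* and 6 in the short transcripts. They met 11 of the 18 member sites, beside 18.2% of the 21738 sites of all genes. These were 6 of 8 sites in *Apob* and 5 of 10 in the short transcripts (the single sites of *Apom*, *Apoa2* and *Apoa5* and the 3´ sites of *Apoa1* and *Apoe*). The authors chose this list by comparing the same libraries, so it is not separate evidence of a difference. It gives 1 fold enrichment per row for both genotypes together, which was 17.4 for *Apom*, 7.62 for the strongest *Apob* site and 4.28 for *Apoa2*.

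*Mttp*, *Apoc3* and *Apoh* had 0 peaks in all 3 lists. APOC3 restrains lipoprotein lipase, and APOH is an abundant plasma protein that binds phospholipids. No peak of either strand lay in their RefSeq spans (*Mttp* chromosome 3, 138089855 to 138143418; *Apoc3* chromosome 9, 46233050 to 46235636; *Apoh* chromosome 11, 108395297 to 108414396). As the depth is unknown, no upper limit of enrichment can be given for them, and a missing peak does not show that a transcript had no m6A.

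Of a further list of 43 symbols of lipoprotein assembly, transport and uptake (*Apoa1bp* is an older name of *Naxe*), 35 had a peak, 27 of them in both genotypes. Their 34 sites with exactly 1 peak in each genotype had a median log2 ratio of 0.15, with 7 past 2-fold higher and 2 past 2-fold lower in *Wtap*-HKO. Over all genes, 14.8% of the 10805 such sites were past 2-fold higher and 12.4% past 2-fold lower. Of the 37 shared sites of the list, 6 of 7 at annotated starts were higher, as were 5 of 15 away from them and 9 of 15 in genes with no matched start. Among the sites with exactly 1 peak in each genotype, the largest ratios were those of *Clu* (clusterin, a secreted chaperone, 5.27 and 15.8, log2 ratio 1.58), *Mia3* (which helps large cargo leave the endoplasmic reticulum, 6.31 and 2.35, log2 ratio -1.42), *Apof* (1.78 and 4.72, log2 ratio 1.41) and the start of *Lrpap1* (a chaperone of lipoprotein receptors, 4.08 and 10.3, log2 ratio 1.34). In each pair the control value comes first.

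Genes of this list with a weak peak in controls only were *Tm6sf2* (2.04), *Saa1* (1.74) and *Dgat2* (1.48). Those with a peak in *Wtap*-HKO only were *Lpl* (5.99), which encodes lipoprotein lipase, *Saa2* (5.47 and 2.97), *Pltp* (2.57) and *Naxe* (1.86). *Saa1* and *Saa2* are near-identical copies, and the split of their reads is uncertain.

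Of 21 abundant secreted hepatocyte proteins outside the lipoproteins, 17 had a peak. Their 24 sites with exactly 1 peak in each genotype had a median log2 ratio of 0.39, with 4 past 2-fold higher and 1 past 2-fold lower. At annotated starts 8 of 8 shared sites were higher in *Wtap*-HKO, as were 4 of 10 away from them and 2 of 7 in genes with no matched start. Among the sites with exactly 1 peak in each genotype, the highest were in *Kng1* (kininogen, log2 ratio 1.81) and *Itih4* (1.12), and the lowest in *Hp* (haptoglobin, -1.07) and *Fga* (a fibrinogen chain, -0.98).

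*Wtap* itself had 3 peaks in each genotype, which is no check of the deletion, since a peak is a ratio over input and not a level of RNA. Of 7 hepatocyte markers, which include *Apob* and *Apoa1*, 5 had a peak, with 13 peaks in controls and 16 in *Wtap*-HKO. Of their 11 shared sites, 7 were lower in *Wtap*-HKO, mostly the member sites already given (5 in *Apob* and 1 in *Apoa1*). The other shared sites were those of *Alb* (log2 ratio 0.87) and *Hnf4a* (1.17, -0.96 and 0.17). Of 5 Kupffer cell and leukocyte markers, 4 had a peak, with 4 peaks in controls and 7 in *Wtap*-HKO. Here 2 of the 4 shared sites were lower in *Wtap*-HKO (median log2 ratio 0.28). Of 5 endothelial and stellate cell markers, 4 had a peak, with 4 and 9 peaks, and 0 of their 4 shared sites were lower (median log2 ratio 0.71). The whole lists held 15635 and 19185 peaks. The part that a different mix of cells had in the member values was not tested.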

How the data were processed

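Livers of 2 genotypes, *Wtap* flox/flox (controls) and *Wtap*-HKO, were examined by m6ARIP-seq with 2 IP and 2 input libraries each. The authors trimmed the 150 bp paired-end reads with fastp 0.19.11, aligned them to GRCm38 with BWA 0.7.12 and called peaks with exomePeak. HOMER 4.9.1 is also named in the submitters' processing notes. Replicates are combined in all 3 lists. The fold enrichment that the authors deposited is a ratio of IP to input on a linear scale. The deposited false discovery rates are scores on a log10 scale. The list of differing peaks also holds log10 p-values, log10 false discovery rates and log2 fold changes between the genotypes, which are the authors' own comparison and were not used, while its rows and combined fold enrichments were. Read totals per library were not used here, so intervals and floors could not be given.

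The members and gene lists were chosen with earlier results of these data known. All 10 members were named. Of the pathway list, genes with a peak in 1 genotype only and the 4 with the largest absolute log2 ratio at a site with exactly 1 peak in each genotype were named. A withheld item of that list is not reported here. Of the secreted proteins, the 2 highest and 2 lowest were named, and of the genes most like *Apob*, the 3 nearest in median log2 ratio. Peaks of 1 gene ID and strand that shared at least 1 exonic base formed a site. A ratio past 2-fold was an absolute log2 ratio over 1, and no low values were filtered. Starts were the RefSeq starts of GRCm38.p6, matched by symbol for 9 of the 10 members. A site within 50 nt of one was called a start site. Positions are 1-based. Transcript models were not used here, so peaks were not placed in coding sequence or UTRs. Python 3.11.15, pandas 2.3.3, numpy 2.4.6 and matplotlib 3.10.9 were used. The matching was tested on 3000 simulated peaks, of which 577 were left without a partner and all 577 were found. The simulated lists held a single peak per gene at the same positions, so split or partly overlapping peaks were not tested. Alternatives concerned the peaks used, the overlap, the scale, the summary and the genes included. Averaging over shared bases, other start distances and leaving out start sites were added after the data had been seen.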

Additional observations from a re-analysis of the deposited data

How the results depend on the processing

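Of 59 alternative values for counts and medians, 46 stayed within the set limits, which were 1.5 times for counts and 0.1 for log2 ratios. For single sites the overlap and fold enrichment settings leave the value as it is, and centring shifts all of them by 0.0057, so these say nothing of stability. Centring shifts the medians by the same amount and says as little of them. The difference of percentile ranks had the sign of the log2 ratio at all 8 single sites. Peaks with a false discovery rate under 0.01, peaks taken by position on the strand of the gene, and merged peaks gave the same peak counts for the members. No member peak had a log10 false discovery rate above -10, so the first of these settings could not change a count. Merging could not change one either, since no member peaks of the same list overlapped. On either strand, the spans of *Apoa2*, *Apoa4* and *Apoa5* held 2, 4 and 2 control peaks and 2, 4 and 3 *Wtap*-HKO peaks. On the strand of the gene these were 1, 2 and 1 in controls and 1, 2 and 2 in *Wtap*-HKO. With a fold enrichment of at least 2 required, the members had 14 control and 15 *Wtap*-HKO peaks in place of 16 and 20, *Apob* had 7 and 7 in place of 8 and 9, and 9 member sites in place of 13 were shared. Under that setting the short transcripts had 4 shared sites in place of 7, and 1 member site in place of 2 was past 2-fold lower. Over shared bases, 4 member sites were past 2-fold lower, the *Apob* median was -0.85 in place of -0.60, and the median of the short transcripts was 0.43 in place of 0.72. That median was 0.38 as a mean weighted by shared bases, 0.57 with an overlap of at least 50% of the shorter peak and 1.28 with a fold enrichment of at least 2. It was 1.0 without *Apoa1*, 0.57 without *Apoa2*, 1.28 without *Apoe* and 0.57 without *Apom*. It changed sign, to -0.40, without the sites at an annotated start, which leaves 2 sites.

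No paired analysis was possible because the lists combine the replicates of a genotype and give no value per library. No run without a replicate was made for the same reason. Read totals were not used here, so the limit that depth sets is unknown, and the spread between replicates behind each ratio is unknown.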
